A study of Rattus norvegicus with 36 samples.

Results

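Gene expression in the dorsal striatum was compared between rats given cocaine on each of 5 days (Coc–Coc) and rats given saline and then cocaine on the last day (Sal–Coc). The samples were chosen by their labels, Tolerant for Coc–Coc and Acute response for Sal–Coc. They made up 24 of the 36 RNA-seq samples, or 6 of the 9 pools of RNA, since each pool was sequenced as 4 technical replicates that were summed here. The remaining 3 pools came from Sal–Sal rats, which had saline only, and are given as background. All rats were Sprague-Dawley, 8 weeks old per the labels and male per the methods of the study. The labels count 15 saline injections for Sal–Sal, 13 saline and 3 cocaine injections for Sal–Coc and 15 cocaine injections for Coc–Coc. The counts for Sal–Coc add up to more than those of the other groups, and this was not resolved. Tissue was taken on the day that followed the final injection, so both cocaine groups had their last cocaine at the same interval before death. The striata of a pair of rats went into each pool, and pools that carry the same number in different groups came from different rats. The source label names the dorsal striatum, whereas the extraction label names both the nucleus accumbens and the caudate putamen.

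The dorsal striatum, the caudate putamen of rodents, receives dopamine from the midbrain and controls movement and habits. Cocaine blocks the dopamine transporter, which raises extracellular dopamine and drives locomotion and stereotypies. Motor responses to binges of injections can wane with repetition, which is called tolerance, and the comparison of Coc–Coc with Sal–Coc asks what repeated exposure changes in a striatum that has also just met cocaine.

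Reads were counted per Ensembl gene ID, and 32402 IDs were listed, of which 23352 had a count in any pool. Pools 5, 6 and 7 had total counts of 29870775, 37281141 and 36712684 in Sal–Coc and of 39493867, 39347174 and 33816548 in Coc–Coc. Total counts averaged 34621533 ± 4120000 in Sal–Coc and 37552530 ± 3240000 in Coc–Coc (SD, n = 3 each, p = 0.5 in a two-sided exact permutation test, where 3 pools against 3 cannot go below 0.1). The number of genes counted was 19541 ± 314 in Sal–Coc and 19853 ± 142 in Coc–Coc (SD, n = 3 each, exact permutation p = 0.3), and the 10 most abundant genes took 15.7% ± 0.833 and 15.6% ± 1.65 of the counts (exact permutation p = 1). The single most abundant gene took 4.23% ± 0.112 and 4.1% ± 0.64 (exact permutation p = 0.9). All 4 p-values were 1 after Benjamini-Hochberg adjustment. The detection floor was set at 3 counts, which was 0.076 to 0.1 CPM (counts scaled to the size of the library), and it covers counting error only. Gene names could not be given to these IDs here, so neither the tissue nor its cell types could be checked against marker genes, and no pathway could be described. In bulk tissue, fewer cells of a type and less RNA per cell cannot be told apart.

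Pool 5 of Coc–Coc stood apart from the other 8 pools, and results of the comparison are therefore given with and without it. The counts per pool that follow are over the genes tested. In this pool 448 genes were at least 2-fold higher and 176 at least 2-fold lower than the median of the other pools. In pools 6 and 7 of Coc–Coc, 76 and 33 genes were higher and 83 and 96 lower by the same measure, and the Sal–Coc pools had 37, 153 and 17 higher and 191, 83 and 246 lower in pools 5, 6 and 7. The excess in pool 5 of Coc–Coc thus lay mainly among higher genes, whereas pools 5 and 7 of Sal–Coc had more lower than higher ones. These counts depended on the filter on low counts. With at least 10 counts in every pool, 444 genes were that far away in pool 5 of Coc–Coc, 74 and 46 in pools 6 and 7, and 72, 128 and 98 in the Sal–Coc pools. Without a filter they were 1150, 412 and 621 in Coc–Coc and 716, 543 and 609 in Sal–Coc, and pool 5 of Coc–Coc had the most of these 6 pools under either setting.

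**Figure D1:**
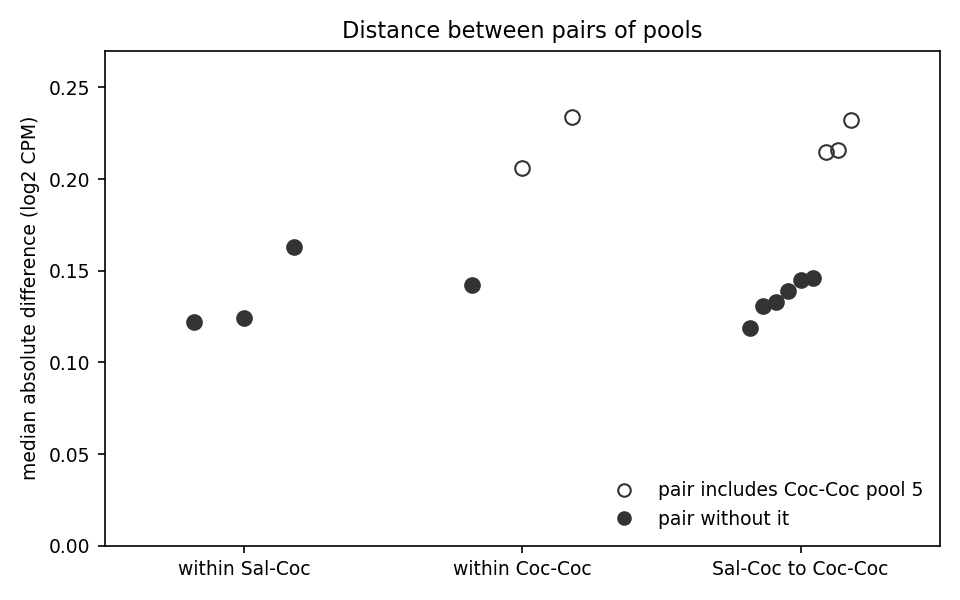
The distance between each pair of pools of Sal–Coc and Coc–Coc is plotted as the median absolute difference in log2 CPM over the genes tested, within Sal–Coc, within Coc–Coc and between the groups. The 5 open circles, pairs that include pool 5 of Coc–Coc, lie between 0.206 and 0.234, above each of the filled circles, which lie between 0.119 and 0.163.

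The distances between pools, plotted by pair, showed that Coc–Coc pools other than pool 5 were on average no further from Sal–Coc pools than Sal–Coc pools were from each other. The median absolute log2 difference was 0.124 between pools 5 and 6 of Sal–Coc, 0.122 between pools 5 and 7, and 0.163 between pools 6 and 7, a mean of 0.136 ± 0.0231 (SD, 3 pairs). Across the groups it averaged 0.164 ± 0.0438 (SD, 9 pairs) with pool 5 of Coc–Coc and 0.136 ± 0.0101 (SD, 6 pairs) without it. Within Coc–Coc it was 0.142 between pools 6 and 7, against 0.206 and 0.234 from pool 5 to pools 6 and 7. Pairs share pools, so these distances are a description with no test. In the 6 pairs across the groups without pool 5 of Coc–Coc, 7.32% to 9.1% of genes were at least 1.5-fold apart, beside 6.68% to 9.37% in the pairs within Sal–Coc. The 3 pairs with pool 5 had 15.9%, 17% and 18.7%.

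Spread within Coc–Coc followed the same pool. The median SD of log2 CPM over genes was 0.164 among the 3 Coc–Coc pools, 0.116 among those of Sal–Coc and 0.104 among those of Sal–Sal. In Coc–Coc the SD was above that of Sal–Coc for 63.8% of genes. No SD is given for pools 6 and 7 alone, since an SD over fewer pools is lower in the median, and their distance of 0.142 lay within the 0.122 to 0.163 of the pairs within Sal–Coc. Set against the mean of the Sal–Coc pools, pool 5 had 1533 genes at least 1.5-fold higher and 860 at least 1.5-fold lower. Pool 6 had 534 and 437, and pool 7 had 454 and 266. More genes were higher than lower by this measure in all 3 Coc–Coc pools. The 3 pools share the Sal–Coc mean as their reference, so these counts are not independent. Pools 5 and 7 of Sal–Coc, which enter that mean, had more lower than higher genes against the other pools.

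No differentially expressed gene (DEG) was found between Coc–Coc and Sal–Coc in edgeR's quasi-likelihood test. With all 9 pools fitted, 0 of 15884 genes (0%) passed at an adjusted p-value under 0.05, and the lowest adjusted p-value was 0.346. Without pool 5 of Coc–Coc, 0 of 16019 genes (0%) passed, and the lowest was 0.159. With the pool, 1116 genes had a p-value under 0.05 before adjustment, or 7.03% of those tested, where an even spread of p-values gives 794. They divided into 639 higher in Coc–Coc (4.02%) and 477 lower (3%). Without the pool there were 894 such genes (5.58%), close to the 801 of an even spread, with 525 higher (3.28%) and 369 lower (2.3%). The lists from the fits shared 490 genes, which is 43.9% of the list with the pool and 54.8% of the list without it, and 0 of the shared genes differed in direction between the fits. Over the 15884 genes tested in both, the direction of the difference turned for 3613 (22.7%). DESeq2 called 2 of 23325 genes (0.00857%) with the pool, 1 higher (0.00429%) and 1 lower (0.00429%). Without the pool it called 6 of 23091 genes (0.026%), 5 higher (0.0217%) and 1 lower (0.00433%). DESeq2 was run on genes with any count, without the filter on low counts used in edgeR, so its shares are over more genes.

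**Figure D2:**
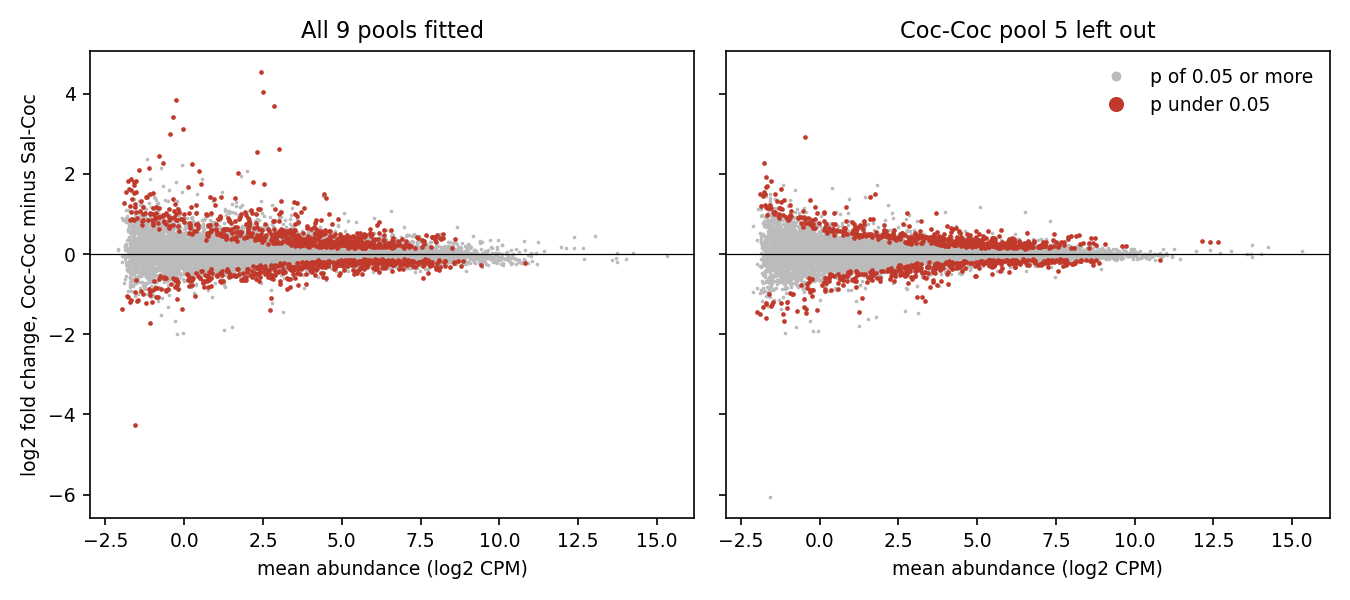
The log2 fold change, Coc–Coc minus Sal–Coc, is plotted with all 9 pools on the left and without pool 5 of Coc–Coc on the right. Both panels show the 15884 genes tested with all pools, against their mean abundance in log2 CPM over all 9 pools. Red points mark an unadjusted p-value under 0.05 in edgeR, 1116 genes on the left, and they lie on both sides of 0 in either panel. The 894 such genes without pool 5 were counted over 16019 genes, and those tested only without the pool are not drawn.

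Differences between the groups were small for most genes. The median absolute log2 fold change was 0.106 with pool 5 of Coc–Coc and 0.0901 without it. The median standard error was 0.122 and 0.113. Each median was taken over genes separately, so they do not set a gene against its own error. The median log2 fold change over genes was 0.0095 with the pool and −0.00092 without it. In the plot of fold change by abundance, the points spread out towards low abundance in both panels. With the pool, 780 genes were estimated at least 1.5-fold apart and 193 at least 2-fold apart, and without it 650 and 148. Of the 780, 300 also had an unadjusted p-value under 0.05, and of the 650, 200 did. The 193 genes at least 2-fold apart with the pool were 156 higher and 37 lower in Coc–Coc. Of the 156 higher genes, 41 were also at least 2-fold higher without pool 5. A further 75 were then less than 1.5-fold apart in either direction, and 29 turned lower, of which 25 were among the 75. Of the 37 lower genes, 22 were also at least 2-fold lower without it, and 0 were less than 1.5-fold apart. The large differences towards higher expression thus rested on pool 5 for many genes.

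The balance of directions at an unadjusted p-value under 0.05 was described by abundance, with no test. Genes were divided into 5 bins at cut points set by mean CPM over the 9 pools. Without pool 5 of Coc–Coc, genes were placed by their mean over the remaining pools at the same cut points. A bin therefore need not hold the same genes in both fits. In the bin of highest abundance, above 65.6 CPM, 73 of 3177 genes were higher in Coc–Coc with the pool and 112 lower. Together they made up 5.82% of the bin. In the other bins the higher genes were the more numerous. There were 141 against 89 in the lowest, under 2.44 CPM (7.24% of 3177). Between 27.8 and 65.6 CPM there were 127 against 98 (7.08% of 3177). Without pool 5 the highest bin had 97 higher and 87 lower (5.81% of 3165), so its majority of lower genes was not kept. The higher genes were then the more numerous in every bin. The margin ran from 89 against 88 between 2.44 and 10.9 CPM (5.6% of 3161) to 114 against 56 between 27.8 and 65.6 CPM (5.38% of 3162). The share of genes with such a p-value lay between 5.82% and 7.68% across bins with the pool and between 5.32% and 5.81% without it.

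**Figure D3:**
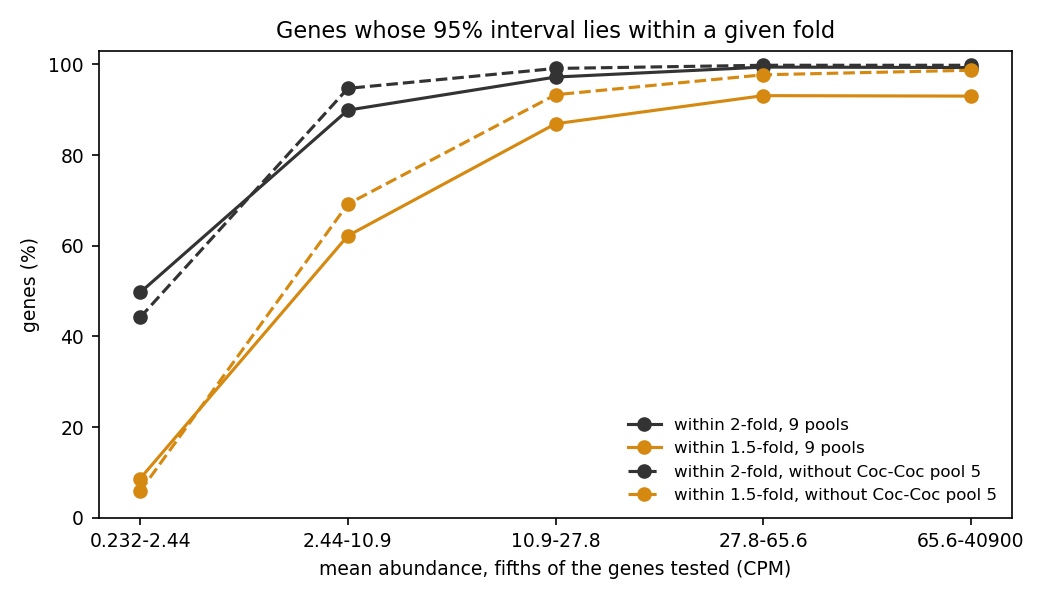
The percentage of genes whose whole 95% interval of the Coc–Coc to Sal–Coc difference lies within 2-fold (black) or 1.5-fold (orange) is plotted for 5 bins of the genes by mean CPM, with all 9 pools (solid) and without pool 5 of Coc–Coc (dashed). It rises from 49.7% within 2-fold in the lowest bin to 99.3% in the highest with all pools.

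The measurements bounded how large most differences could be. The 95% interval of the fold change lay within 2-fold in either direction for 13835 genes (87.1%) with pool 5 of Coc–Coc and for 13939 genes (87%) without it. It lay within 1.5-fold for 10921 genes (68.8%) and 11562 genes (72.2%). These bounds depended on abundance, as the plot of intervals by bin shows. From 10.9 to 27.8 CPM, 97.2% of genes were bounded within 2-fold and 86.9% within 1.5-fold. Without pool 5 these shares were 99.1% and 93.3%. Under 2.44 CPM only 49.7% and 8.66% were with the pool and 44.2% and 5.87% without it, and for the rest of those genes the interval reached beyond that fold. The whole interval lay beyond 1.5-fold for 8 genes with pool 5 and for 6 without it. An interval is not adjusted for the number of genes.

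The pools of Coc–Coc and Sal–Coc did not overlap for 1689 of 15884 genes (10.6%), 807 with every Coc–Coc pool higher (5.08%) and 882 with every one lower (5.55%). Without pool 5 of Coc–Coc, where only 5 pools have to be parted, 3201 of 16019 genes did not overlap (20%), 1561 higher (9.74%) and 1640 lower (10.2%). These counts are a description with no test, and the rise without pool 5 follows from parting fewer pools. Parting 3 pools from 3 has the lowest possible exact permutation p, 0.1. About that share of genes would part with no difference between the groups, and a larger share with 5 pools. The counts therefore do not show a difference between the groups.

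Of the 23352 genes with a count in any pool, few were counted throughout either cocaine group and absent from the other. Most of these were near the floor. In every Coc–Coc pool and no Sal–Coc pool 48 genes were counted, with a median of 4 counts summed over the group. The largest sum was 46, of which 44 counts were in pool 5, and the next was 14. In every Sal–Coc pool and no Coc–Coc pool 27 genes were counted, again with a median of 4 and at most 8. Without pool 5, 119 genes were counted in both pools 6 and 7 of Coc–Coc and no Sal–Coc pool, with a median of 2 counts and at most 6. In every Sal–Coc pool and neither of these Coc–Coc pools 71 genes were counted, with a median of 4 and at most 24. Without pool 5 fewer Coc–Coc pools have to hold or lack a gene. The 119 and 71 are therefore not comparable with each other or with the counts from all pools. Of the 48 genes 42 were also counted in Sal–Sal, as were 22 of the 27.

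Single genes are given by Ensembl ID, the pair higher and the pair lower in Coc–Coc with the smallest p-values among genes whose pools did not overlap. That their groups part is therefore how they were chosen, and their values are a description. Their names and functions were not determined here.

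**Figure D4:**
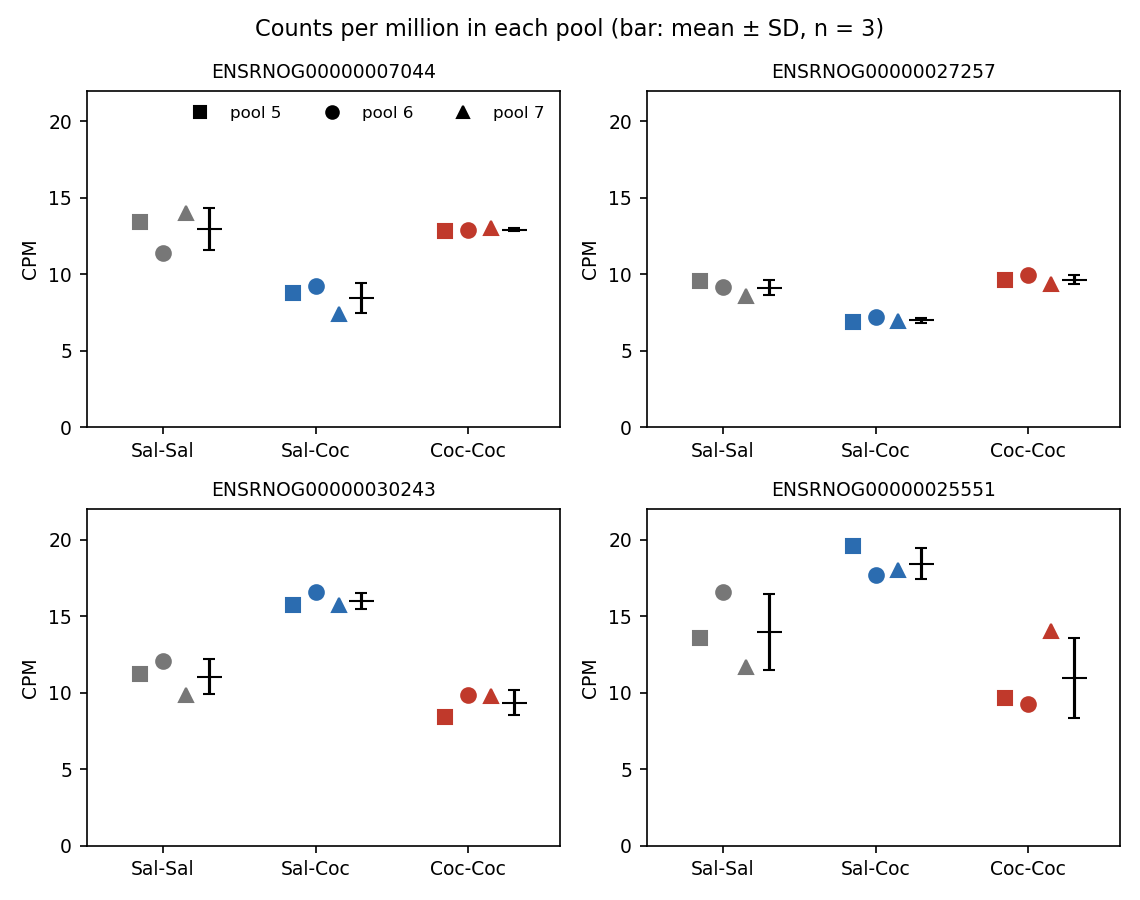
The levels of 4 genes in CPM are plotted for each pool of Sal–Sal (grey), Sal–Coc (blue) and Coc–Coc (red), with the pool number as the marker shape and the mean ± SD (n = 3) beside the points. For the upper pair the Sal–Coc pools lie below those of the other groups, and for the lower pair they lie above them.

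ENSRNOG00000007044 was higher in Coc–Coc than in Sal–Coc. It was counted at 8.78, 9.23 and 7.37 CPM in pools 5, 6 and 7 of Sal–Coc and at 12.8, 12.9 and 13 CPM in those of Coc–Coc. Pool 5 of Coc–Coc lay with its group here, and the 3 Coc–Coc pools differed by less than any other group did. The Sal–Sal pools had 13.4, 11.4 and 14 CPM, so the Coc–Coc pools lay within the range of saline and the Sal–Coc pools below it. The log2 fold change from Sal–Coc to Coc–Coc was 0.61 ± 0.11 (SE, adjusted p = 0.68 in edgeR), or 1.53-fold, with a 95% interval from 0.36 to 0.86. Without pool 5 it was 0.61 ± 0.13 (SE, adjusted p = 0.677 in edgeR). DESeq2 gave an adjusted p of 0.0408 with the pool and 0.0963 without it, so its call was lost.

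ENSRNOG00000027257 was likewise higher in Coc–Coc. Its level was 6.86, 7.17 and 6.95 CPM in the Sal–Coc pools and 9.62, 9.92 and 9.33 CPM in the Coc–Coc pools. Sal–Sal pools had 9.57, 9.19 and 8.59 CPM, all above Sal–Coc and overlapping Coc–Coc. The log2 fold change was 0.46 ± 0.09 (SE, adjusted p = 0.68 in edgeR) with pool 5 and 0.46 ± 0.10 (SE, adjusted p = 0.839) without it. DESeq2 did not call it either, at adjusted p-values of 0.303 and 0.606.

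ENSRNOG00000030243 was lower in Coc–Coc and had the smallest p-value of the comparison with all 9 pools, though not without pool 5. Its level was 15.7, 16.6 and 15.7 CPM in the Sal–Coc pools and 8.41, 9.84 and 9.8 CPM in the Coc–Coc pools, with pool 5 the lowest. The Sal–Sal pools had 11.2, 12.1 and 9.85 CPM, between the cocaine groups. The log2 fold change was −0.78 ± 0.10 (SE, adjusted p = 0.346 in edgeR) with pool 5 and −0.71 ± 0.11 (SE, adjusted p = 0.328 in edgeR) without it. DESeq2 called it in either case, at adjusted p-values of 3.89e-06 and 0.000695.

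ENSRNOG00000025551 was lower in Coc–Coc with a wider spread. Its level was 19.6, 17.7 and 18 CPM in the Sal–Coc pools and 9.66, 9.23 and 14 CPM in the Coc–Coc pools. Here pool 7 of Coc–Coc, not pool 5, lay nearest to Sal–Coc. The Sal–Sal pools had 13.6, 16.6 and 11.7 CPM and overlapped Coc–Coc. The log2 fold change was −0.75 ± 0.17 (SE, adjusted p = 0.68 in edgeR) with pool 5 and −0.67 ± 0.18 (SE, adjusted p = 0.839) without it, and DESeq2 gave adjusted p-values of 0.172 and 0.154.

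All 4 genes had the Sal–Coc mean furthest out and the Coc–Coc mean nearer to that of Sal–Sal, as the plot of the 4 genes shows. For ENSRNOG00000025551 the distances of the cocaine groups from Sal–Sal were alike within their errors, on opposite sides. With all 9 pools, the Coc–Coc minus Sal–Sal differences were 0 ± 0.11 for ENSRNOG00000007044, 0.08 ± 0.09 for ENSRNOG00000027257, −0.24 ± 0.11 for ENSRNOG00000030243 and −0.35 ± 0.17 for ENSRNOG00000025551 (log2, SE, adjusted p from 0.681 to 0.996 in edgeR). The Sal–Coc minus Sal–Sal differences were −0.61 ± 0.11, −0.38 ± 0.09, 0.54 ± 0.10 and 0.40 ± 0.17 in the same order (log2, SE, adjusted p from 0.33 to 0.596 in edgeR). Genes chosen for a difference between Coc–Coc and Sal–Coc share the Sal–Coc pools with the latter comparison, so an opposite sign there is favoured by the choice.

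Leaving out pool 5 of Coc–Coc gave DESeq2 calls for 5 further genes, and all 5 were higher in Coc–Coc. Their log2 fold changes in edgeR were 0.4 to 0.71 without the pool and 0.18 to 0.49 with it. Their DESeq2 adjusted p-values were 3.3e-05 to 0.0074 without the pool and 0.457 to 1 with it, and edgeR did not call them in either fit, at adjusted p-values of 0.159 to 0.614 without the pool. Pool 5 lay below pools 6 and 7 of Coc–Coc in all 5, which is how a gene comes to be called higher only once that pool is left out. Against the Sal–Coc pools it was above every one in 2 genes, below every one in 2 and among them in 1. The gene with the smallest of these p-values, which was also the smallest in edgeR without the pool (9.93e-06 before adjustment), was at 25.9 and 24.4 CPM in pools 6 and 7 of Coc–Coc, at 11.3 CPM in pool 5, at 14.4 to 16.4 CPM in Sal–Coc and at 12.6 to 14.3 CPM in Sal–Sal. The most abundant of the 5 was at 559 and 562 CPM in pools 6 and 7, at 319 CPM in pool 5, at 396 to 442 CPM in Sal–Coc and at 370 to 390 CPM in Sal–Sal. For both genes, which are the pair with pool 5 below Sal–Coc, pool 5 was below all other pools of the series, and pools 6 and 7 were above them. In 3 of the 5 genes the Sal–Sal pools all lay above those of Sal–Coc, and in the other 2 all below. What sets pool 5 apart was not tested.

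**Figure D5:**
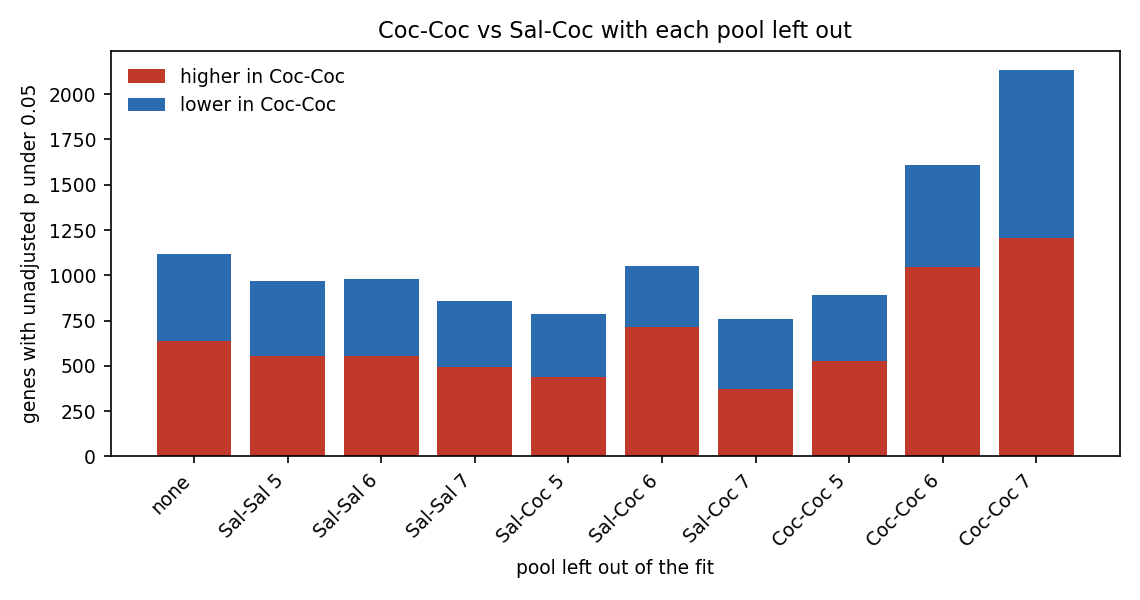
The number of genes at an unadjusted p-value under 0.05 in edgeR for Coc–Coc vs. Sal–Coc is plotted with no pool left out and with each of the 9 pools left out in turn, as stacked bars of genes higher (red) and lower (blue) in Coc–Coc. The bars run from 757 without pool 7 of Sal–Coc to 2133 without pool 7 of Coc–Coc.

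The number of genes at an unadjusted p-value under 0.05 depended on which pool was left out, as the bars by left-out pool show. Without pool 7 of Coc–Coc it was 2133 (13.2%) and without pool 6 it was 1611 (10%), so that it was higher where pool 5 stayed as 1 of 2 Coc–Coc pools. Without pool 5 or pool 7 of Sal–Coc it was 789 (4.88%) and 757 (4.71%). The balance moved as well. Of the 1051 genes found without pool 6 of Sal–Coc 67.8% were higher in Coc–Coc, and of the 757 found without pool 7 of Sal–Coc 48.9% were, against 57.3% with all pools and 58.7% without pool 5 of Coc–Coc. In all 9 of these fits 0 genes passed the adjusted threshold, with lowest adjusted p-values from 0.159 to 0.857.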

How the data were processed

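RNA-seq of poly(A) RNA from 9 pools was analysed. The authors deposited raw read counts per Ensembl gene ID, without normalisation. Per the submitters' processing notes, bcl2fastq 2.18.0.12, STAR and HTSeq 0.5.3 were used. Libraries were strand-specific, and the strand setting of the counting is not given in the sources used here, so genes that overlap on opposite strands are uncertain. The authors removed reads that mapped more than once, which undercounts near-identical genes. The counts of the 4 technical replicates were summed per pool, because they differed by little more than sampling noise (chi-square per degree of freedom 1.005 to 1.028, over genes averaging 10 counts or more). Summed totals per pool ran from 29870775 to 39493867.

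Genes were kept by filterByExpr (minimum count 10, minimum total 15) in edgeR 4.0.16 under R 4.3.3. With TMM factors of 0.961 to 1.04, a mean per group was fitted to all 9 pools, without covariates, and tested by the two-sided quasi-likelihood F-test (6 residual and 4.07 prior degrees of freedom). P-values were adjusted by Benjamini-Hochberg over all genes tested. Without pool 5 of Coc–Coc, the filter, scaling and fit were repeated, with 5 residual degrees of freedom. The edgeR p-values set the difference between groups against the spread between pools, which was estimated over all groups, Sal–Sal included. Log2 CPM used a prior count of 2. DESeq2 1.42.0 and limma 3.58.1 with voom were alternatives, with other scalings, filters, subsets and a block of pool number. The fits were tested on simulated counts.

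The genes to be named were members of lists and genes named by the study, and the smallest p-values among genes whose pools do not overlap, of which IDs without a symbol were limited to 2 per direction. Samples, lists and rules were chosen with earlier results of these data known. Since 0 of 32402 IDs matched the RefSeq table at hand (assembly GRCr8), gene lists, cell type markers, mitochondrial genes and sequences were not used here.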

Additional observations from a re-analysis of the deposited data

How the results depend on the processing

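The number of genes at an adjusted p-value under 0.05 was 0 in edgeR's quasi-likelihood test and stayed at 0 with upper-quartile or RLE scaling, all genes with a count, a minimum of 10 counts in each pool, voom with sample quality weights, the older quasi-likelihood method, only the 6 pools compared, only those without pool 5 of Coc–Coc, and technical replicate a alone. It was 0 in each of the 9 fits that left out a pool (lowest 0, highest 0). It was 1 with edgeR's likelihood ratio test, 2 with DESeq2, 6 with DESeq2 without pool 5 of Coc–Coc and 3397 with the 36 technical replicates as separate libraries, which counts technical replicates of a pool as independent samples. The 1116 genes at an unadjusted p-value under 0.05 (639 higher, 477 lower) were from the main fit. With only the 6 pools compared there were 674 of 15695 (395 higher, 279 lower), and 669 of 15828 (413 and 256) without pool 5. Both counts are below what an even spread of p-values gives. DESeq2 without pool 5 gave 670 of 23091 (400 and 270), where an even spread gives 1155. The 36 technical replicates gave 5161 of 13993 (2773 and 2388). Why the counts from fewer pools and from DESeq2 lay below an even spread was not tested. Leaving out each pool gave 757 to 2133 such genes, 370 to 1206 higher and 338 to 927 lower. Non-overlapping genes ranged from 2783 to 4162 when a pool of either group was left out, where fewer pools have to be parted. Genes bounded within 2-fold stayed within 1.5 times the number given under all alternatives run.

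With pool number as a replicate block, 0 genes passed, beside 1096 at an unadjusted p-value under 0.05 (655 higher, 441 lower), and DESeq2 with the replicate block called 4. The same-numbered Coc–Coc and Sal–Coc pools deviated from their group means with correlations across genes of 0.156, 0.076 and 0.011 for pools 5, 6 and 7, and pool 6 of Coc–Coc correlated more with pool 7 of Sal–Coc, at 0.11. Pairs with different numbers ran from −0.194 to 0.11, so the 0.156 of the pools numbered 5 was the highest of all pairs. Whether same-numbered pools share a batch or a round of dissection was not tested.

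The 4 genes given by ID were chosen because their pools part, which largely fixes their direction under these alternatives. Over 96 alternatives they passed in 9, of which 4 were the 36 technical replicates, 1 for each gene. Of the others, ENSRNOG00000030243 passed in 4, all in DESeq2 or the likelihood ratio test, ENSRNOG00000007044 in 1, with DESeq2, and ENSRNOG00000027257 and ENSRNOG00000025551 in 0. Medians of gene lists were not computed, since no ID was matched to a name. Depth limits what can be said below about 2.44 CPM.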
